A study of Mus musculus with 6 samples.

Results

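The Notch receptors, their ligands and their targets were examined in organoids of mouse pancreatic tumours. The 10 genes were taken by name: the receptors Notch1, Notch2 and Notch3, the ligands Jag1, Jag2, Dll1 and Dll4, and the targets Hes1, Hey1 and Nrarp. All 10 were found among 53379 annotated genes. Total RNA was sequenced from 6 libraries of C57/Bl6 tumour organoids, which are epithelial cultures kept in a Matrigel dome. All 6 cultures carried Cre under the Pdx1 promoter, which is active in pancreatic epithelium. Of the alleles reported here, the 3 heterozygous libraries carried Trp53LSLR172H/+ with Pdx1-Cre. The other 3 libraries carried Trp53LSLR172H/- with the same Cre and were titled LOH, for loss of heterozygosity. Each of the organoid lines 6, 23 and 34 gave 1 library of either genotype. The LOH cultures also bear an extra ending in their sample descriptions, which the labels do not explain, and anything it marks cannot be told apart from the genotype. Nothing in the labels says that separate cultures of a line were sequenced, so p-values measure the spread between these libraries. The question was which members of the pathway differed once the wild-type Trp53 allele had been lost.

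In Notch signalling a ligand on one cell binds a receptor on its neighbour. The pull of the ligand exposes the receptor to cleavage by ADAM proteases and then by the gamma-secretase complex, and the freed intracellular domain joins RBPJ and Mastermind proteins to switch on genes such as those of the Hes and Hey families. In the developing pancreas the pathway holds progenitors undifferentiated, and in the adult organ it is known for its part in duct cells and in early lesions.

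Promoter sequence was available from RefSeq (GRCm38.p6) for 8 of the 10 genes, all but Hes1 and Hey1, which had 9 windows in all. Those of Notch3, Dll1 and Jag1 are shown because these genes had the largest differences between the genotypes, and that of Nrarp as the target with a window. Dll1 had 2 windows, and the one shown lies before its annotated gene, whereas the other lies within it. All 250 bases of the one shown are also in an exon of A930024N18Rik, on the other strand. Each line is the strand of the gene, 5′ to 3′, and ends at the base before the start site, except that the Jag1 line ends where its annotated gene begins. Capitals mark matches to the motifs described after them.
Notch3 (chr17:32166891-32167140, minus strand): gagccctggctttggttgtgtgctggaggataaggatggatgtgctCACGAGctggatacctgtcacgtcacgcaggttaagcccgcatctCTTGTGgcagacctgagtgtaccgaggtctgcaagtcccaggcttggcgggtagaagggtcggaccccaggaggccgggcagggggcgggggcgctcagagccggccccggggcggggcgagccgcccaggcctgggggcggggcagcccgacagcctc
Dll1 (chr17:15376933-15377182, minus strand): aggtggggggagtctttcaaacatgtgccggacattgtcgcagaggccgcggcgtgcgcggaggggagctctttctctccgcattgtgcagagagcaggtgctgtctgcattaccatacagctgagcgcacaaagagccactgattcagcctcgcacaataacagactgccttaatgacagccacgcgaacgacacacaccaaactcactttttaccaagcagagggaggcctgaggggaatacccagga
Jag1 (chr2:137116645-137116770, minus strand): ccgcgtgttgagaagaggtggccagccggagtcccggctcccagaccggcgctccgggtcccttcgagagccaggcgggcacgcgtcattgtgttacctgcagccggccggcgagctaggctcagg
Nrarp (chr2:25180508-25180757, plus strand): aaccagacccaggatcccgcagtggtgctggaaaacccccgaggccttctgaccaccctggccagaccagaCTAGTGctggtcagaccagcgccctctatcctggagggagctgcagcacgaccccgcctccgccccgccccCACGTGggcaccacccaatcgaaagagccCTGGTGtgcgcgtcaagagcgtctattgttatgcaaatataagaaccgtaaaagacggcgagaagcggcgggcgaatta

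The motifs were searched on both strands over the 250 bases before each start site. The core of the RBPJ site, TGGGAA or TTCCCA, was in 0 of the 9 windows, against 21.6% of 32851 promoters. The N-box, CACNAG or CTNGTG, which Hes repressors are known to bind, was in 5 of the 9 windows, against 36.7% of all promoters. Those windows belonged to Notch1, Notch2, Notch3, Dll4 and Nrarp. Notch3 had 2 N-boxes, CACGAG from base -204 and CTTGTG from base -159, counted back from the start site. Nrarp had N-boxes from bases -179 and -79 and, from base -108, the E-box CACGTG, which 6.02% of promoters held. A match is a run of letters and was not tested as a binding site.

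Library totals ran from 13680458 to 27917277 expected counts, the estimated reads per gene, and overlapped between the genotypes. A count of 3 was worth 0.1 to 0.222 CPM (counts scaled to the depth of a library), with depth taken by the TMM method. Levels that are compared between genes are given in TPM (transcript abundances from RSEM, out of a fixed total), which also correct for length. Trp53 itself was at 76.2 to 86.4 CPM in the heterozygous and 47.3 to 73.4 CPM in the LOH libraries, and its counts do not separate the alleles. The cultures had the markers of their labelled tissue: 6 epithelial genes summed to 3430 to 3920 TPM in the heterozygous libraries and to 2670 to 5040 TPM in the LOH libraries, most of it from the keratins Krt8, Krt18 and Krt19. Markers of other cell types were near 0. The 7 endothelial genes summed to at most 0.95 TPM with Emcn at 0 counts, and the 6 pericyte and smooth muscle genes to at most 0.4 TPM. The sum of 6 fibroblast markers was at most 0.01 TPM in heterozygous and 0.13 to 0.24 TPM in LOH libraries, with Col3a1 at 0. Pdgfra gave 0.23 and 0.11 TPM of it in LOH lines 6 and 23 and 0.01 TPM in line 34. That of 6 acinar markers was 0.65 to 0.84 and 0.79 to 2.46 TPM, mostly Cela1, with Pnlip at 0. The part of the fibroblast and acinar markers in the results was not tested.

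Of the 10 genes, 8 had enough counts to be tested, and 2 of these 8 passed. The receptor Notch3 rose and the ligand Dll1 fell in the LOH libraries, in the edgeR quasi-likelihood test with a Benjamini-Hochberg adjusted p under 0.05. Over all genes 757 of 14537 passed, or 5.21%, with 3.55% higher and 1.66% lower in LOH. With the organoid line as a replicate block none of the 8 passed, against 1.47% of all genes. Without the block, 3 of the 8 (Notch3, Jag1 and Dll1) had an unadjusted p under 0.05, against 25.3% of all genes. The CPM of the groups did not overlap in 4 of the 8, against 32.8% of all genes: Notch3 was higher in every LOH library, and Jag1, Jag2 and Dll1 were lower in each. The 8 genes had a median log2 fold change of 0.1, beside 0.06 over all genes tested. Of the 8, 5 had the same sign in the 3 lines, as did 44.5% of all genes.

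**Figure D1:**
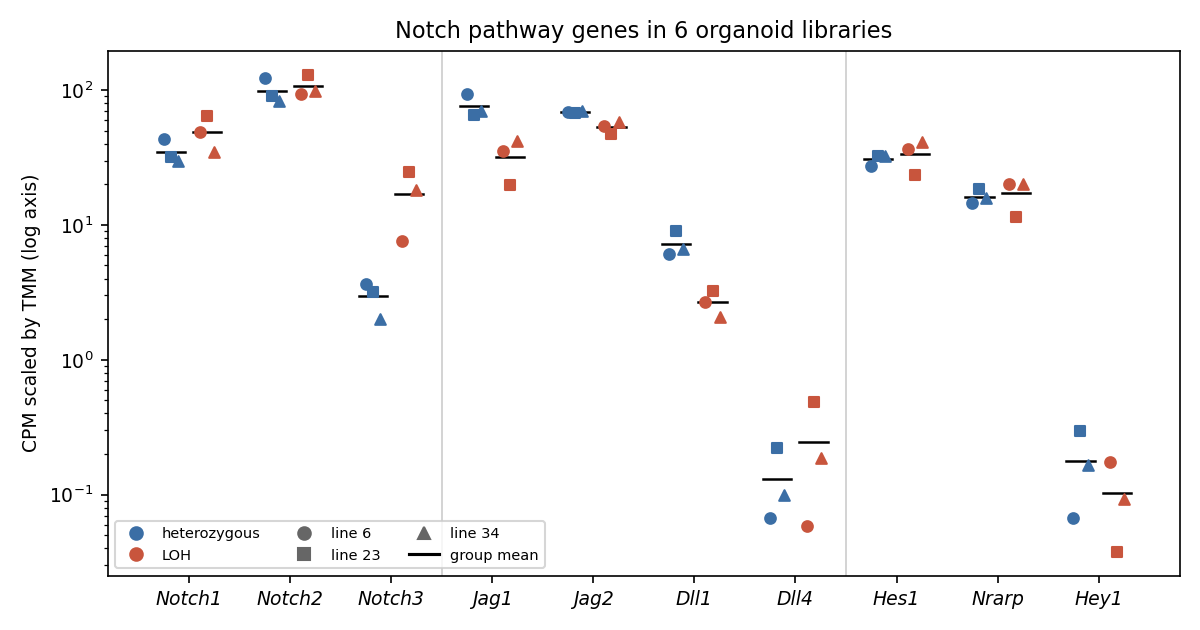
CPM on a log axis of each gene in the 6 libraries, with heterozygous libraries in blue, LOH libraries in red, a symbol for each organoid line and a bar at the mean of 3 libraries. The 3 LOH points of Notch3 (7.62 to 24.7 CPM) lie above its heterozygous ones (2.0 to 3.67 CPM), those of Jag1, Jag2 and Dll1 lie below, and Dll4 and Hey1 stay under 0.5 CPM.

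Among the receptors, Notch3 differed most. It is best known in the smooth muscle of arteries and is also found in pancreatic tumour cells. Notch3 (ENSMUSG00000038146.7, chromosome 17, 32120820 to 32166852, minus strand, GRCm38) had 3.67, 3.19 and 2.0 CPM in heterozygous lines 6, 23 and 34, from 110, 43 and 60 counts. In LOH the same lines had 7.62, 24.7 and 18.1 CPM, from 131, 656 and 389 counts. The groups did not overlap, and the rise was smallest in line 6. The means were 2.95 ± 0.857 and 16.8 ± 8.63 CPM (SD, n = 3 each), a 5.71-fold rise with a log2 fold change of 2.51 (SE 0.48) and an edgeR adjusted p of 0.0358. Within the lines the log2 ratio was 1.04, 2.92 and 3.12. With the line as a block the log2 fold change was 2.41 and the adjusted p of 0.0983 no longer passed. Over 15 alternatives it stayed between 2.12 and 3.04 with adjusted p from 1.8e-05 (DESeq2) to 0.232. The call was lost without any 1 of the heterozygous libraries (adjusted p 0.142, 0.153 and 0.174 without lines 6, 23 and 34) and without LOH line 23 or 34 (0.071 and 0.0599). With both libraries of line 23 or of line 34 left out it was 0.232 or 0.216. In the fits without 1 heterozygous library or without both libraries of line 23 or 34, 0 of all genes tested passed. Bulk RNA does not tell more cells with Notch3 from more Notch3 RNA per cell. Pericyte and smooth muscle markers summed to 0.16 to 0.29 TPM in the heterozygous libraries and to 0.21 to 0.4 TPM in the LOH libraries. Notch3 itself was at 0.28 to 0.6 TPM and at 0.91 to 2.7 TPM. Whether such cells had a part in its level was not tested.

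Notch1 and Notch2, the receptors of most epithelia, did not pass. Notch2 (ENSMUSG00000027878.11, chromosome 3, 98013527 to 98150361, plus strand) was the most abundant receptor in every library. It had 122, 90.6 and 83.2 CPM in the heterozygous libraries and 92.9, 130.0 and 98.0 CPM in LOH, in the order of lines 6, 23 and 34. The groups overlapped, and line 6 was lower in LOH whereas lines 23 and 34 were higher. The log2 fold change was 0.12 (95% interval -0.42 to 0.66, edgeR adjusted p 0.778). Notch1 (ENSMUSG00000026923.15, chromosome 2, 26457903 to 26516663, minus strand) had 43.4, 31.6 and 29.7 CPM, and 48.5, 63.6 and 34.9 CPM in LOH. LOH was higher in each line, with log2 ratios of 0.16, 1.0 and 0.23, but the groups overlapped. The log2 fold change of 0.49 (95% interval -0.16 to 1.14) had an edgeR adjusted p of 0.312.

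Of the 4 ligands 3 were lower in every LOH library, and Dll4 was near the limit of detection. Dll1, a Delta-type ligand with a part in the choice of cell fate in the embryonic pancreas, fell. Dll1 (ENSMUSG00000014773.13, chromosome 17, 15367354 to 15376872, minus strand) had 6.13, 9.04 and 6.63 CPM in heterozygous lines 6, 23 and 34, with 184, 122 and 199 counts. In LOH it was at 2.67, 3.24 and 2.09 CPM, from 46, 86 and 45 counts. All LOH values lay below all heterozygous ones, and each line was lower in LOH, at log2 ratios of -1.17, -1.45 and -1.62. The means were 7.27 ± 1.55 and 2.67 ± 0.575 CPM (SD, n = 3 each), 2.71-fold apart, with a log2 fold change of -1.44 (SE 0.32) and an edgeR adjusted p of 0.0489. With the line as a block the log2 fold change was -1.45 with an adjusted p of 0.106. Over 17 alternatives the adjusted p ran from 0.00106 (DESeq2) to 0.249. The call was lost without any 1 of the heterozygous libraries (adjusted p 0.149, 0.192 and 0.198 without lines 6, 23 and 34) and without LOH line 23 or 34 (0.0652 and 0.0719). It was also lost with no filter on low counts (0.0587) and with any 1 line left out (0.0689, 0.229 and 0.249 without lines 6, 23 and 34). As for Notch3, 0 of all genes passed without 1 heterozygous library or without both libraries of line 23 or 34.

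Jag1, the Jagged-type ligand of ducts and vessels, was lower in every LOH library but did not pass. Jag1 (ENSMUSG00000027276.7, chromosome 2, 137081456 to 137116644, minus strand) had 94.1, 65.4 and 70.2 CPM in the heterozygous libraries and 35.0, 19.8 and 41.6 CPM in LOH. Its counts ran from 526 to 2824. The groups did not overlap, and the log2 ratios within lines 6, 23 and 34 were -1.42, -1.72 and -0.76. The log2 fold change was -1.25 (SE 0.31, 95% interval -1.99 to -0.52), with an edgeR adjusted p of 0.0646. It passed in 4 of 17 alternatives: 0.0349 with no filter on low counts, 0.00396 in DESeq2, and 0.0239 and 0.0258 in limma on TPM with pseudocounts of 1 and 0.1. Over all genes those fits called 979, 2290, 1911 and 1753, against 757 in the main fit. Among all 17 the adjusted p of Jag1 went up to 0.212.

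Jag2, the other Jagged-type ligand, had 68.6, 67.7 and 69.6 CPM in the heterozygous and 54.1, 47.0 and 58.2 CPM in the LOH libraries. Jag2 (ENSMUSG00000002799.6) lies on chromosome 12, 112907819 to 112929776, minus strand. The LOH values were below all of the heterozygous ones. Within the lines the log2 ratio was -0.34, -0.53 and -0.26. The log2 fold change of -0.37 (95% interval -0.77 to 0.03) had an edgeR adjusted p of 0.225. Dll4 (ENSMUSG00000027314.6, chromosome 2, 119325784 to 119335962, plus strand), the ligand of sprouting vessels, had 2, 3 and 3 counts in the heterozygous libraries and 1, 13 and 4 counts in LOH. It was at 0.02 to 0.24 TPM and was not tested. The 13 counts came from LOH line 23.

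None of the targets passed the test. Hes1, a repressor that keeps pancreatic progenitors from endocrine differentiation, was at 27.5, 32.6 and 32.3 CPM in heterozygous lines 6, 23 and 34. In LOH it had 36.3, 23.3 and 41.2 CPM. The groups overlapped, and lines 6 and 34 were higher and line 23 lower in LOH. Hes1 (ENSMUSG00000022528.7, chromosome 16, 30064384 to 30067796, plus strand) had a log2 fold change of 0.13 (95% interval -0.46 to 0.71, edgeR adjusted p 0.779). Nrarp (ENSMUSG00000078202.3, chromosome 2, 25180758 to 25183339, plus strand), a target that acts back on the Notch transcription complex, had 14.5, 18.3 and 15.8 CPM. In LOH it had 20.2, 11.5 and 20.1 CPM, with LOH line 23 again the lowest of the 6 libraries. Its log2 fold change was 0.09 (95% interval -0.55 to 0.73, edgeR adjusted p 0.861). Line by line Hes1 and Nrarp had the same signs, at 0.40 and 0.47 in line 6, -0.48 and -0.67 in line 23, and 0.35 and 0.34 in line 34. Hey1 (ENSMUSG00000040289.8, chromosome 3, 8663359 to 8667256, minus strand), a repressor of the Hes-related family, had 2, 4 and 5 counts in the heterozygous and 3, 1 and 2 counts in the LOH libraries and was not tested.

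**Figure D2:**
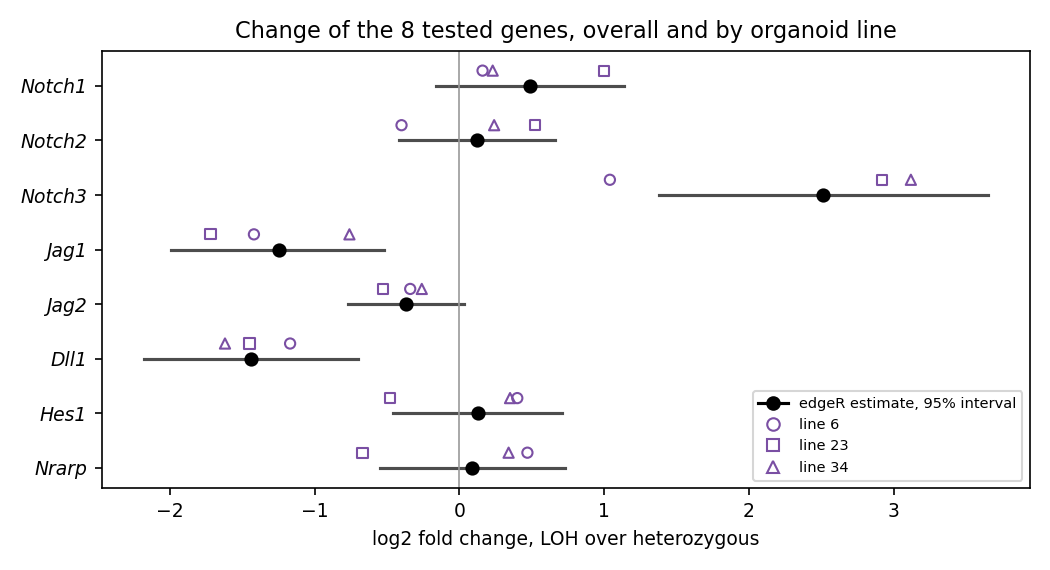
Log2 fold change of LOH over heterozygous libraries for the 8 tested genes, as the edgeR estimate (black) with its 95% interval, and as the ratio within each organoid line (open symbols). Notch3 is at 2.51 and Dll1 at -1.44, both with the 3 lines on 1 side of 0, whereas the lines of Notch2, Hes1 and Nrarp fall on both sides.

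The sign of the small differences was not stable. In limma on log2(TPM + 1), which also tested fewer genes, the median of all genes was -0.353, against 0.063 in CPM, and Notch2, Hes1 and Nrarp then had log2 fold changes of -0.29, -0.33 and -0.29. Relative to these medians the 3 genes were within 0.1 of the other genes in either unit. Jag1 at -1.51 and Dll1 at -0.99 were lower than that median.

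By mean TPM over the 6 libraries Hes1 was the highest of the 10 genes (25.4 TPM). It was followed by Jag2 (20.3), Jag1 (11.1), Notch2 (10.9), Nrarp (6.85) and Notch1 (4.96), then by Dll1 (1.77), Notch3 (1.12), Dll4 (0.09) and Hey1 (0.0867). Jag1 and Notch2 had nearly the same overall mean but opposite orders in the genotypes. Jag1 was above Notch2 in each of the 3 heterozygous libraries, at 17.0 ± 5.61 and 12.1 ± 3.57 TPM (SD, n = 3 each), where the ranges of the genes overlapped. It was below Notch2 in each of the 3 LOH libraries, at 5.25 ± 1.59 and 9.6 ± 2.23 TPM. Dll1 and Notch3 also changed places: Dll1 was at 2.67 ± 0.278 TPM against 0.433 ± 0.16 TPM for Notch3 in the heterozygous libraries, and at 0.863 ± 0.352 against 1.81 ± 0.895 TPM in LOH. Dll4 and Hey1, at the bottom, were not separated by their counts.

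Shares of TPM within a library do not depend on scaling. They were chosen after values had been seen, so they are given with no test. Notch3 made up 2.55%, 2.86% and 1.96% of the TPM of the 4 receptors in heterozygous lines 6, 23 and 34, and 5.91%, 12.4% and 13.5% in LOH. Notch2 made up 69.2% ± 0.352 and then 57.1% ± 2.1 (SD, n = 3 each). The Notch1 share, at 26.5% ± 0.698 and 30.9% ± 6.68, overlapped. Of the TPM of 5 ligands, Jag1 held 41.6%, 32.6% and 35.4% in the heterozygous libraries and 24%, 20.2% and 30.0% in LOH. The Jag2 share went the other way, at 57.3% ± 3.3 and 70.0% ± 3.09. The ligands summed to 2.38, 2.7 and 2.88 times the TPM of the receptors in the heterozygous libraries and to 1.64, 0.773 and 1.55 times in LOH. Receptors outweighed ligands in 1 library, LOH line 23.

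**Figure D3:**
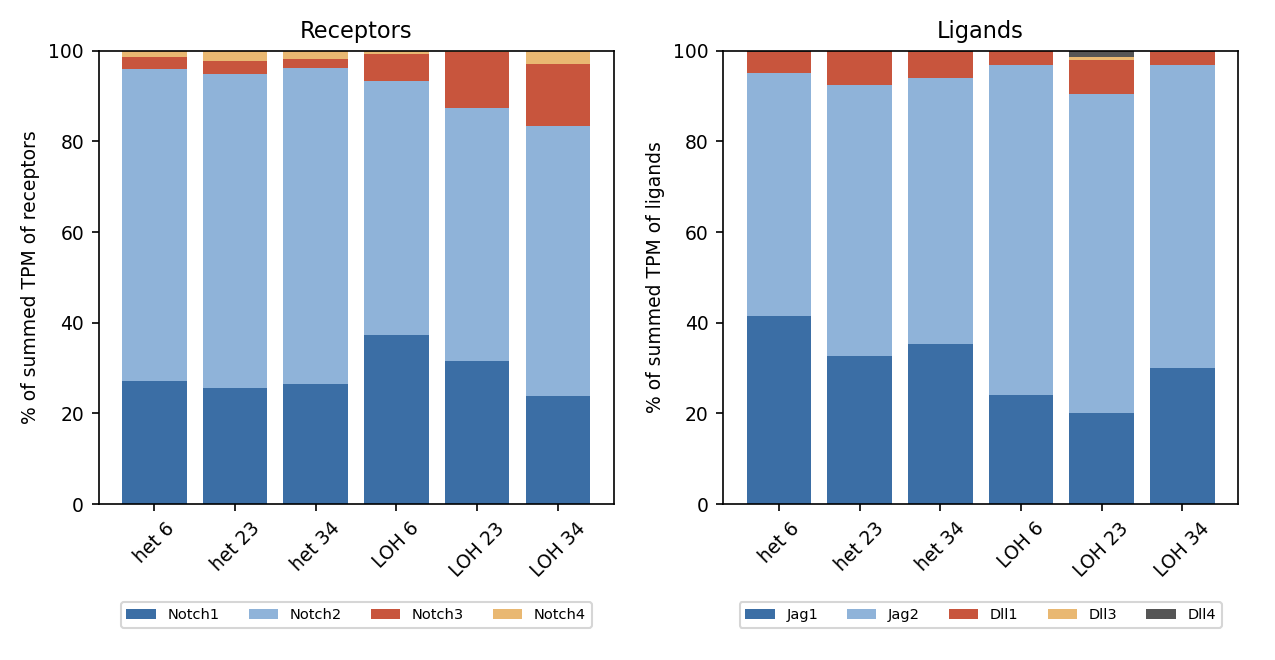
Share in percent of the summed TPM of the 4 receptors (left) and of the 5 ligands (right) that each gene holds, in each of the 6 libraries. The red Notch3 segment takes 1.96% to 2.86% in heterozygous and 5.91% to 13.5% in LOH libraries, and the Jag2 segment is larger in the LOH libraries.

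The transcript tables divided each gene among its annotated transcripts. Notch3 and Nrarp have 1 transcript each. The coding transcript Notch2-201 held 88.6% ± 3.79 of the Notch2 TPM in heterozygous and 92.3% ± 5.37 in LOH libraries (SD, n = 3 each). Jag1-201 held 94.5% ± 0.767 and 94.7% ± 5.28 of the Jag1 TPM. Jag2 was the most divided of the tested genes, with Jag2-201 at 56.3% ± 2.32 and 59.7% ± 8.15 and all 10 transcripts detected. Of the tested genes Dll1 varied most among LOH libraries, with Dll1-201 at 100%, 56.8% and 78.0% in lines 6, 23 and 34, where Dll1 had 46, 86 and 45 counts. No leading share of the 6 tested genes with several transcripts passed an exact two-sided permutation test between the genotypes. The lowest p was 0.3 (adjusted 0.75, Notch1-201), and 3 against 3 libraries cannot go below 0.1.

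Genes that overlap the members had few counts. The antisense gene Gm17276 over Notch3 had at most 4 counts, and A930024N18Rik, on the other strand of Dll1, had at most 12. Gm42819, within Notch2 on its strand, had at most 47. The strand setting of the counting is not given in the sources used here, so reads of a gene and its antisense partner could be mixed. The 50 tested genes around Notch3, 25 on either side in chromosome order, had a median log2 fold change of 0.23. Those around Dll1, from 8165501 to 21725636, had 0.28, a sign opposite to that of Dll1. The 50 around Notch2 had a median of 0.59, above the log2 fold change of Notch2 itself.

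The rest of the pathway was read from a list of 52 further genes, grouped by role. Of these, 43 were tested and none passed in edgeR with or without the block, while 7 had an unadjusted p under 0.05 (6 higher and 1 lower), a smaller share than the 25.3% of all genes. DESeq2 called 6 of the 51 tested genes of the whole list, members included, or 11.8%, against 15.8% of all genes, and 3 of the 6 were Notch3, Jag1 and Dll1. The 43 genes had a median log2 fold change of 0.36, beside 0.06 over all genes, with 30 above 0 and 13 below (7850 and 6687 over all genes). Their groups did not overlap in 9 of the 43, a smaller share than the 32.8% of all genes.

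The receptor turnover group has parts in the endocytosis or degradation of Notch. All 10 of its genes had edgeR log2 fold changes above 0, with a median of 0.64 and none past the threshold. Dtx3l, an E3 ligase of the Deltex family, was at 13.3 to 15.1 CPM in the heterozygous and 19.5 to 29.2 CPM in the LOH libraries, without overlap. Its log2 fold change was 0.84 (SE 0.22) with an edgeR adjusted p of 0.0729. It passed in DESeq2 (0.013), without LOH line 6 (0.0224) and without both libraries of line 6 (0.0456), over 17 alternatives that went up to 0.366. Over all genes those fits called 2290, 2449 and 1423, against 757 in the main fit. Aak1, a kinase of clathrin-coated vesicles, was the most abundant of the group at 14.4 TPM and had 0.25 (adjusted p 0.54). In limma on log2(TPM + 1) Aak1 was at -0.14, with the median of all genes at -0.353. Ligand uptake, which supplies the pull on the receptor, had 5 of 6 genes above 0 and a median of 0.6. The epsin Epn2 was at 31.1 to 33.3 CPM and 42.9 to 54.1 CPM, without overlap, with a log2 fold change of 0.57 (edgeR adjusted p 0.102). It passed in DESeq2 (0.0387) and without LOH line 6 (0.0487), fits that called more of all genes as given above, in a range up to 0.721. Epn1, the more abundant epsin at 48.4 TPM, was at -0.06 (adjusted p 0.876).

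Of the glycosylation genes, which add sugars to the receptors, all 4 tested were below 0, with a median of -0.27. The sign was the same in the 3 lines for only 1 of the 4. Poglut1, the glucosyltransferase of Notch, was at 30.0 to 34.9 CPM in the heterozygous and 14.4 to 24.8 CPM in the LOH libraries, without overlap. Its log2 fold change was -0.72 (SE 0.24) with an edgeR adjusted p of 0.119. It passed without LOH line 6 (0.0386) and in limma on TPM with pseudocounts of 1 and 0.1 (0.0333 and 0.0353), in a range up to 0.458. Over all genes those fits called 2449, 1911 and 1753, against 757 in the main fit. The 10 cleavage genes, which release the receptor's intracellular domain, had a median of 0.23 with 6 above 0. The gamma-secretase subunits Psenen and Ncstn were at 0.28 and 0.38 (adjusted p 0.371 and 0.29).

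All 6 genes of the nuclear complex were above 0, with a median of 0.42. The sign was the same in the 3 lines for only 1 of the 6, against 44.5% of all genes. The Mastermind coactivator Maml2 had 14.5, 6.37 and 7.24 CPM in heterozygous lines 6, 23 and 34, and 13.3, 23.5 and 20.6 CPM in LOH. The groups overlapped through line 6, and its log2 fold change was 1.03 (SE 0.38) with an edgeR adjusted p of 0.154. It passed without both libraries of line 6 (0.039), where the log2 fold change was 1.66, in a range up to 0.578. That fit called 1423 of all genes, against 757 in the main fit. Snw1, the most abundant of the group, was at 0.11 (adjusted p 0.765). The 4 co-repressors were divided, 2 above and 2 below 0, with Kdm5a at 0.60 (adjusted p 0.331). Of the 7 other genes listed as targets 2 were tested. Sox9, a duct factor, was at 0.53 (SE 0.24, adjusted p 0.214). Hes6, which belongs to the Hes family but opposes Hes1, was at -0.11 (adjusted p 0.853). Notch4, the vascular receptor, was at 0.253 TPM and not tested, and the non-canonical ligand Dlk2 was at -0.76 (SE 0.71, adjusted p 0.527).

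**Figure D4:**
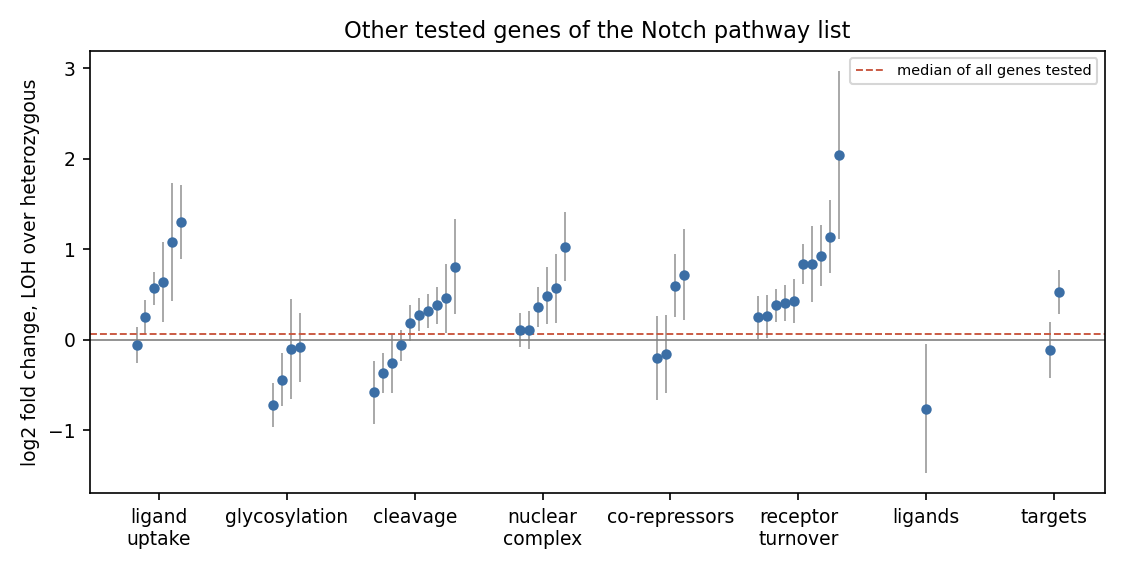
Log2 fold change of LOH over heterozygous libraries, with its standard error, for the other 43 tested genes of the pathway list by role, with the median of all genes (0.06) as a dashed line. All points of receptor turnover and of the nuclear complex lie above 0 and all 4 of glycosylation below, and none of the 43 passed the test. The sign was the same in the 3 lines for 7 of 10, 1 of 6 and 1 of 4 genes of these roles.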

How the data were processed

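Total RNA libraries of 6 organoid cultures were made with a stranded kit, per the labels' protocols. The submitters' processing notes list FastQC 0.11.5, STAR 2.5.2b, RSEM 1.3.0, DESeq2 1.44.0 and build GRCm38.p5, with no role or order. The deposited expected counts are RSEM's estimated counts per gene and transcript, and the deposited TPM values are scaled for length and depth, per the file headers. The effective lengths deposited by the authors were used for counts per kilobase. A normalized signal table deposited by the authors named 23525 genes and, in its protein-coding form, limited 1 alternative. The annotation was GENCODE M16, per the names of the deposited tables. Positions came from GENCODE M21 (GRCm38). The reference of gene names held 53274 of 53379 identifiers.

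Expected counts were rounded, kept by filterByExpr (14537 genes), scaled by TMM and tested two-sided with edgeR's quasi-likelihood test (version 4.0.16, R 4.3.3), with Benjamini-Hochberg adjustment over all genes and a threshold of 0.05. A standard error is the log2 fold change over the square root of F. The fit was also run on counts simulated without line effects and with larger changes than those of the ligands, so it does not bear on these. Groups and lines came from the titles. Libraries of 1 line share a number, so the numbers pair them. Deviations from the mean of each group correlated at -0.3, 0.01 and 0.29 within lines 6, 23 and 34 and at -0.39 to 0.3 between lines, across genes, which are not independent. The unblocked fit was the main one, as no label states a paired model. Log2 ratios within a line used a prior count of 2 on CPM.

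The alternatives were DESeq2 1.42.0, RLE scaling, the line as a block, no filter, a minimum of 10 counts per library, protein-coding genes, and the removal of 1 library or 1 line at a time. In addition limma 3.58.1 was run on log2(TPM + 1) and log2(TPM + 0.1) for genes that reached a TPM of 1 in 3 libraries. Notch3 did not reach that TPM in 3 libraries and was not tested there. An allele shared by both groups and 2 marker lists are not reported here. Members, lists and marker genes were chosen with earlier results of these data known. Besides the members, the genes named were those past the threshold and, in each role, the gene with the highest mean TPM and the one with the smallest p. The reads carry no molecular identifiers, so counts are not independent molecules.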

Additional observations from a re-analysis of the deposited data

Results flagged for a closer look

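Of 21 named genes compared over the 3 organoid lines, 10 had LOH above heterozygous in some lines and below in others. Signs that differed among lines were also common over all genes tested, of which 44.5% had the same sign in the 3 lines. Each line has 1 library of either genotype, and differences among lines have no test. The gap between the highest and the lowest log2 ratio of the lines was 0.92 for Notch2, 0.88 for Hes1 and 1.14 for Nrarp. Among the other pathway genes it was 2.86 for Dlk2, 1.99 for both Maml2 and Kdm5a, 1.1 for Aak1, 0.94 for Hes6, 0.71 for Epn1 and 0.47 for Snw1. Line 6 went against the other 2 lines in Notch2, Maml2, Kdm5a, Aak1, Hes6 and Dlk2, and line 23 did so in Hes1, Nrarp, Epn1 and Snw1. Dlk2 rests on 3 to 39 counts a library.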

How the results depend on the processing

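The direction of Notch1, Notch3, Jag1, Jag2 and Dll1 was kept in every alternative that tested them, and their calls are given above. Over all genes 757 passed, and 213 with the organoid line as a replicate block, 2290 in DESeq2, and 1911 and 1753 in limma on log2(TPM + 1) and log2(TPM + 0.1). Leaving out 1 library or 1 line gave 0 to 2449. None passed without any 1 of the heterozygous libraries or without line 23 or 34, where 2097 to 2964 had an unadjusted p under 0.05. Of the 10 members, 2 passed, 0 with the line as a replicate block, and 0 to 2 when a library or a line was left out. DESeq2 called 3 of the 8 tested members, adding Jag1, against 15.8% of all genes. Of the whole pathway list 2 passed, 0 with the replicate block, 6 in DESeq2, and 0 to 9 with a library or a line left out. The 9 came from the fit without LOH line 6, where 2449 of all 15132 genes tested passed. The block changed no other named gene's call. The median of the members was -0.33 and -0.35 in the 2 limma fits.

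Signs turned only in genes that did not pass. With libraries or lines left out the log2 fold change ran from -0.11 to 0.36 for Notch2, -0.05 to 0.37 for Hes1, -0.14 to 0.41 for Nrarp, -0.19 to 0.15 for Epn1, -0.06 to 0.26 for Snw1, -0.02 to 0.54 for Aak1 and -0.33 to 0.13 for Hes6. In limma on log2(TPM + 1) and log2(TPM + 0.1) it was -0.29 and -0.32 for Notch2, -0.33 and -0.35 for Hes1, -0.29 and -0.34 for Nrarp, -0.15 and -0.16 for Psenen, -0.27 and -0.28 for Snw1, and -0.14 and -0.15 for Aak1, with the median of all genes at -0.353 and -0.417. The share of Notch1-201 differed by -2.94 percentage points in TPM and by 2.06 in expected counts. With a library left out that of Jag1-201 ran from -2.45 to 2.82 points and that of Dll1-201 from -19.4 to 2.22. By counts per kilobase Notch2 took place 3 and Jag1 place 4. The cause of these shifts was not tested. Depth limits Dll4 and Hey1, with 13 counts or fewer a library.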
